A study of Mus musculus with 24 samples.

Results

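Fatty acid uptake and handling was followed here through 9 genes: Lpl, Gpihbp1, Vldlr, Cd36, Slc27a1, Fabp4, Fabp5, Acsl1 and Aqp7. The genes were fixed by name and looked up among the 24346 features of the RNA-seq count files, 1 transcript for each gene, and all 9 were found. The 12 libraries came from 3T3-L1, a mouse line of fat cell precursors that turns into fat cells when induced with hormones. Every group was 3T3-L1, and n = 3 throughout: LSD1 overexpression at day 7, LSD1 overexpression at day 0, control at day 7 and control at day 0. Day 0 cells were confluent and not yet induced, and day 7 cells had been induced with insulin at 10 µg/ml, rosiglitazone at 10 µM, isobutylmethylxanthine at 500 µM and dexamethasone at 1 µM, then kept from day 3 in medium with insulin only. The control cells carry no named allele or vector in the labels. How LSD1 was overexpressed, and whether 1 line or several gave the replicates, is not stated, so the label and any other difference between the lines cannot be told apart. The replicates are called biological in the sample titles without naming separate cultures, so p-values measure the spread between these samples only. LSD1 is a histone demethylase encoded by Kdm1a.

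As background, fat cells take up fatty acids that lipoprotein lipase (Lpl) releases from circulating triglyceride. In tissue the enzyme is carried to the capillary wall by Gpihbp1, an anchor made by endothelial cells, and Vldlr, the very low density lipoprotein receptor, binds triglyceride-rich particles. Released fatty acids pass the plasma membrane with the help of the scavenger receptor Cd36 and the fatty acid transport protein Slc27a1, are carried in the cytosol by the binding proteins Fabp4 and Fabp5, and are activated to acyl-CoA by synthetases such as Acsl1. Aqp7 is a channel through which fat cells release glycerol after lipolysis. Several of these genes are known targets of PPARγ, the nuclear receptor that rosiglitazone activates.

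The bases just before the start site are shown for the 5 members that have a promoter entry in the RefSeq table of build GRCm38.p6 (Cd36, Vldlr, Slc27a1, Acsl1 and Aqp7), because LSD1 peaks are compared at these sites further on. Each line gives the 250 bases before the start site on the strand of the gene, 5′ to 3′. Capitals mark every match, on either strand, to AGGTCA (a nuclear receptor half-site) or GGGCGG (a GC box), so that TGACCT and CCGCCC are matches on the other strand.
Cd36, chr5:17835897-17836146, minus strand: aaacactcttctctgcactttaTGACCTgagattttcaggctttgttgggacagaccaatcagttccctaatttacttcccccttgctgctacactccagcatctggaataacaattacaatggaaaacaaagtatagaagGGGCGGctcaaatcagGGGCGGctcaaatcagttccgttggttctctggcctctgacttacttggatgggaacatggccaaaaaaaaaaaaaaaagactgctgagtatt
Vldlr, chr19:27216770-27217019, plus strand: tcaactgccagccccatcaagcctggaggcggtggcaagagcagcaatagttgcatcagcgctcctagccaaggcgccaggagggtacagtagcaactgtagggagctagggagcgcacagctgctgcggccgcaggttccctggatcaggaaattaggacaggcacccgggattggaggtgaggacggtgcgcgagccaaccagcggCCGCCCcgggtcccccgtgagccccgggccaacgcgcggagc
Slc27a1, chr8:71568621-71568870, plus strand: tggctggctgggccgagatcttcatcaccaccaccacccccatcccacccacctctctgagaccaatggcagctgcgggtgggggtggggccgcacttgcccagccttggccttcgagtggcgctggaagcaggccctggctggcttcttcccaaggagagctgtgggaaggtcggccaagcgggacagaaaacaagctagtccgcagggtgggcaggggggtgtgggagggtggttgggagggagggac
Acsl1, chr8:46470787-46471036, plus strand: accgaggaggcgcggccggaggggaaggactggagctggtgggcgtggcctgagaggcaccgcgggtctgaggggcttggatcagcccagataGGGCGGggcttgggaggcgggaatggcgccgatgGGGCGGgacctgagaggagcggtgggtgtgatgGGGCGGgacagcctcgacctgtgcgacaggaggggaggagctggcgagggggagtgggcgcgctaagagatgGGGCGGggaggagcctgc
Aqp7, chr4:41048137-41048386, minus strand: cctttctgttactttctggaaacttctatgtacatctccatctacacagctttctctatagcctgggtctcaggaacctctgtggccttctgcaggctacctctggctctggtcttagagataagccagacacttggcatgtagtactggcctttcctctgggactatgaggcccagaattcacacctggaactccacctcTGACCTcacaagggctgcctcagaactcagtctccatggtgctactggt

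The windows differ in base composition and in the motifs they hold. Acsl1 has the highest GC content, 72% of its bases, and 4 GC boxes. Cd36 has the lowest, 43.2%, with 2 GC boxes that begin 109 and 93 bases before the start site, and 1 half-site that begins at 228 bases. Aqp7, at 50.8% GC, has 1 half-site that begins 49 bases before the start site and no GC box. Vldlr, at 66.4% GC, has 1 GC box, and Slc27a1, also at 66.4%, has neither motif. Over 32851 promoter windows of the same length in the table, 14% hold AGGTCA and 32.7% hold GGGCGG. The letters CCAAT were found in the windows of Cd36, Vldlr and Slc27a1 and in 33.8% of all windows. No match was found in the 5 windows to TTGCNNAA (a C/EBP-type site, 9.56% of all windows), the palindromic Nrf1-type site (3.74%) or TATAAA (the TATA box, 12.4%). The Cd36 window belongs to the start site of 2 of the 5 Cd36 transcripts in the files, not to that of the transcript whose counts are used.

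Kdm1a did not follow the overexpression label at day 7. It stood at 54.3, 55.4 and 54.4 CPM (the usual count relative to library size, here TMM-scaled) at day 7 and 89.4, 104 and 99.0 CPM at day 0 in the libraries labelled LSD1 overexpression, against 66.1, 67.6 and 74.5 CPM at day 7 and 79.0, 86.3 and 84.1 CPM at day 0 in control libraries. The 2 labels did not overlap at either day, and the labelled libraries were the lower ones at day 7, with a log2 difference of −0.34 (SE 0.0967, edgeR adjusted p = 0.00751). At day 0 the difference was 0.23 (SE 0.0958, edgeR adjusted p = 0.0969). These counts are those of 1 annotated transcript of the gene. Libraries are therefore named by their label, as LSD1-labelled or control.

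Among the 12 libraries, LSD1-labelled day 0 replicate 1 stood apart from its group, with correlations of log2 CPM of 0.955 and 0.957 to the other 2, which had 0.993 between themselves. In control day 0, replicate 3 had more Cd36, Fabp4 and Aqp7 than the other 2. That library also had more Adipoq (58 counts, against 10 and 15), Cidec (77, against 7 and 25) and Plin1 (13, against 3 and 1). Where a call on 1 of the 9 genes changes without 1 of these libraries, that value is given beside it. The summed level of 6 adipocyte markers (Adipoq, Plin1, Cidec, Pparg, Cebpa and Lep) was 5814 to 6996 CPM in LSD1-labelled day 7 libraries, 35.5 to 43.4 in LSD1-labelled day 0, 1478 to 1614 in control day 7 and 59.9 to 68.7 in control day 0. Cidec carried most of the sum in LSD1-labelled day 7 libraries (4075 ± 454 CPM), where Lep was at 0, and between labels at day 7, 4 of the 5 tested were higher and Adipoq did not pass (0.54, edgeR adjusted p = 0.107). The sum of 6 preadipocyte markers (Dlk1, Pdgfra, Pdgfrb, Gata2, Zfp423 and Postn) was 218 to 241, 6419.7 to 9448, 3217 to 3439 and 13853 to 15485.5 CPM in the same groups, and at day 0 Dlk1 carried most of it. At day 7, 5 of the 6 were lower in LSD1-labelled libraries and 1, Zfp423, was higher (0.42, edgeR adjusted p = 0.00915). Between the days in control libraries 4 were lower at day 7 and Pdgfra was higher (0.72, edgeR adjusted p = 3.9e-05). Between labels at day 0 both sums were lower in LSD1-labelled libraries. Of the adipocyte markers tested, 2 were lower (Adipoq and Cebpa) and 3 did not pass, among them Pparg (−0.25, edgeR adjusted p = 0.196), which carried most of that sum at day 0. The control day 0 mean of Adipoq is raised by replicate 3, as given above. Of the preadipocyte markers, 4 were lower, Gata2 did not pass and Pdgfra was higher (0.51, edgeR adjusted p = 0.00168). Endothelial markers (7 genes) summed to at most 2.55 CPM in any library, with Cldn5 at 0 in all 12, and Adgre1, which defines macrophages, was at 0 in all 12. The sum of 6 macrophage markers, carried by Cd14, was 6.61 to 7.14, 16.2 to 31.0, 13.5 to 15.9 and 14.1 to 18.5 CPM in the 4 groups in the same order. 6 brown fat markers summed to 55.2 to 70.8, 0.286 to 1.39, 2.63 to 4.26 and 0.476 to 0.806 CPM, carried at day 7 mainly by Cox7a1, while Ucp1 was at or under 0.073 CPM in every library. The part that these marker differences have in the results on the 9 genes was not tested. In RNA from whole cultures, more fat cells and more RNA per fat cell cannot be told apart.

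At day 7 the 9 genes together held 2.36% to 3.11% of the counts in LSD1-labelled libraries, against 1.19% to 1.39% in control libraries. At day 0 they held 0.0632% to 0.0848% in LSD1-labelled and 0.0751% to 0.0933% in control libraries. Per kilobase of transcript, Fabp4 was the highest at day 7 under both labels, with 20165 ± 3704 CPM per kb in LSD1-labelled and 6378 ± 1275 in control libraries (SD, n = 3 each). It was followed by Lpl, with 2193 ± 252 CPM per kb in LSD1-labelled and 1118 ± 57.4 in control libraries. The next 2 places differed by label: Cd36 (1027 ± 116 CPM per kb) stood above Acsl1 (769.9 ± 10.5) in LSD1-labelled libraries, while Acsl1 (469 ± 31.1) stood above Cd36 (269 ± 10.2) in control libraries. Fabp5, Vldlr, Slc27a1, Aqp7 and Gpihbp1 then came in that order under both labels at day 7, and no 2 neighbours in either order overlapped between their replicates. At day 0 the order was another one. Lpl led under both labels, with 126 ± 14.8 CPM per kb in LSD1-labelled and 167 ± 20.2 in control libraries. Behind it, Fabp5, Slc27a1, Acsl1 and Fabp4 were neighbours that overlapped in LSD1-labelled libraries, from 16.2 ± 8.82 CPM per kb for Fabp5 to 10.7 ± 0.613 for Fabp4. In control day 0 libraries, Fabp4 (17.3 ± 7.86 CPM per kb) and Slc27a1 (17.3 ± 0.373) overlapped, and so did the lowest pair, Cd36 (0.322 ± 0.351) and Aqp7 (0.0421 ± 0.048).

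**Figure D1:**
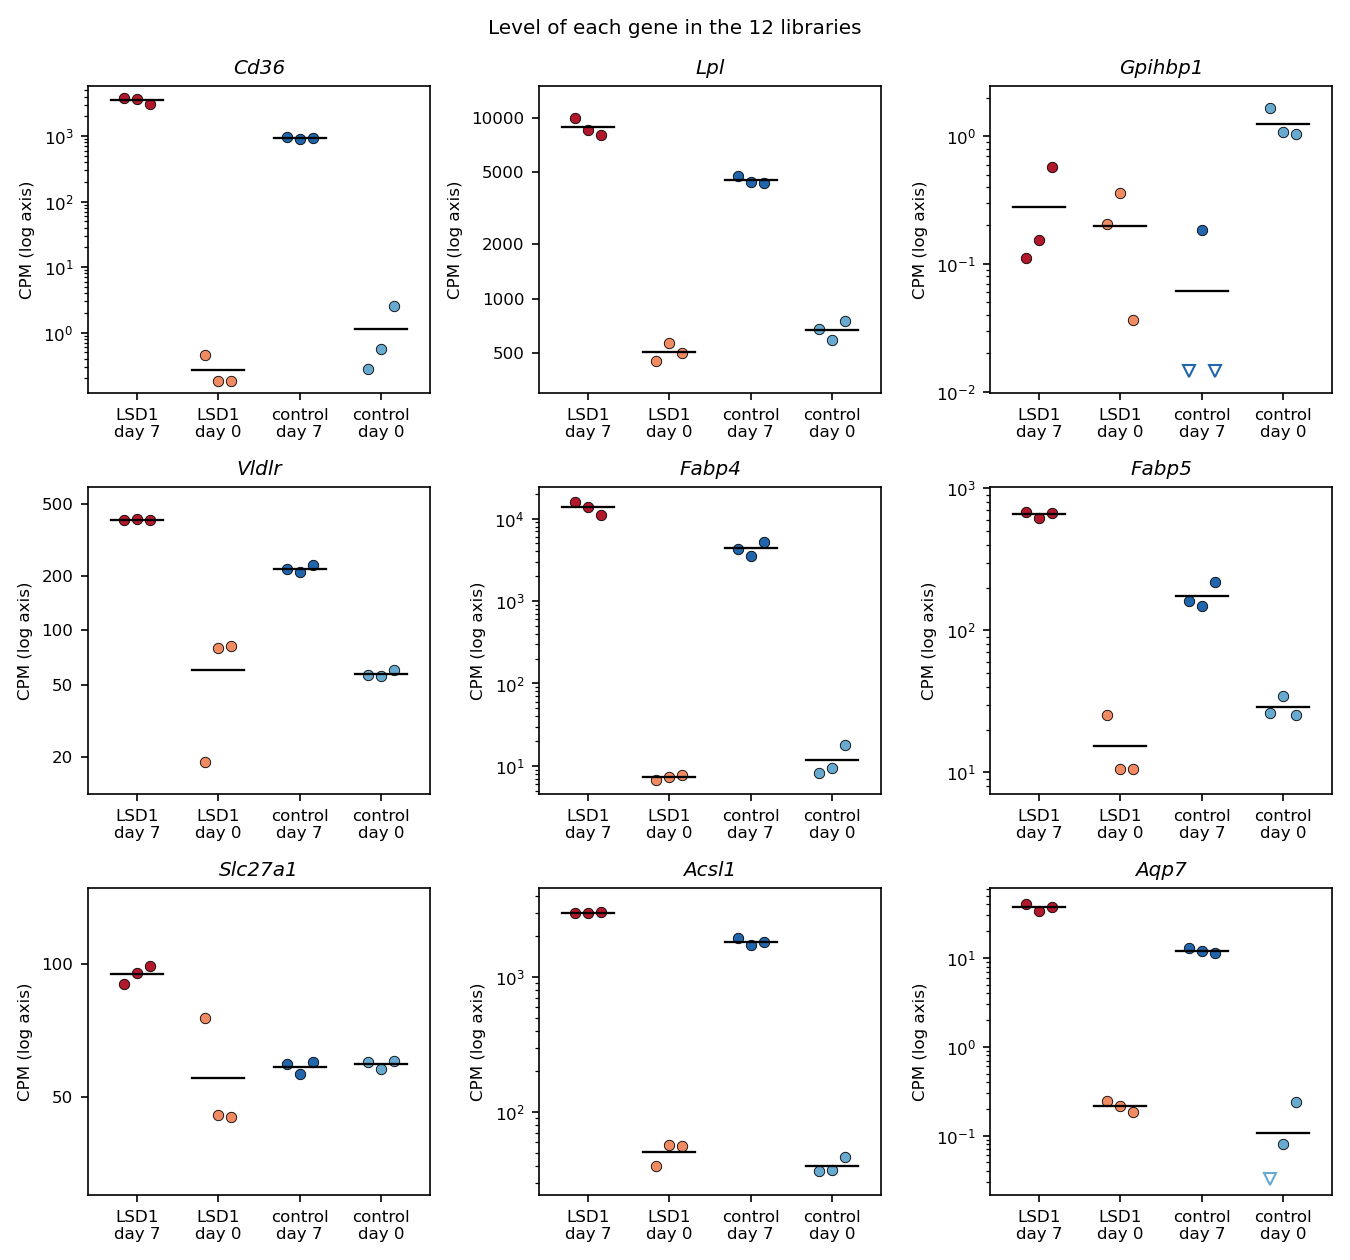
CPM (log axis) of each of the 9 genes in the 12 libraries, in 4 groups of 3 replicates. Filled points are libraries, bars are group means, and open triangles at the bottom of a panel are libraries with 0 counts. Cd36 lies between 3095 and 3869 CPM in LSD1-labelled day 7 libraries, against 897 to 966 CPM in control day 7 libraries.

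Between labels at day 7, 8 of the 9 genes were higher in LSD1-labelled libraries and none was lower; Gpihbp1 did not pass. Of the 13356 genes tested, 63.6% passed in either direction, 30.2% higher and 33.4% lower. The median log2 difference was 1.63 over the 9 genes and −0.05 over all genes tested. At day 0 none of the 9 was higher in LSD1-labelled libraries and 4 were lower (Lpl, Gpihbp1, Cd36 and Fabp5), where 25.8% of all genes passed, 12.8% higher and 13.0% lower. Without LSD1-labelled day 0 replicate 1, 2 members were higher and 4 lower, and 6565 genes were called in place of 3449. Without control day 0 replicate 3, 1 member was higher and 1 lower, with 2172 genes called. No member passed without LSD1-labelled day 0 replicate 3, and 2 passed, both lower, without LSD1-labelled day 0 replicate 2 or control day 0 replicate 1. Of the 4 lower calls, those of Lpl and Cd36 were also lost with upper-quartile scaling (adjusted p = 0.0515 and 0.0506), without the filter on low counts (0.0585 and 0.1) and with only the 2 day 0 groups fitted (0.143 and 0.178), and that of Fabp5 with only these 2 groups (0.14). The medians at day 0 were −0.41 over the 9 genes and 0 over all genes. Between the days, 8 of the 9 were higher at day 7 in LSD1-labelled libraries (69.8% of all genes passed, 32.6% higher and 37.2% lower), with Gpihbp1 not passing. In control libraries 7 were higher at day 7 and 1, Gpihbp1, was lower (48.3% of all genes passed, 23.7% higher and 24.6% lower), with Slc27a1 not passing. These comparisons share libraries, so their counts are not separate support. All 9 genes had enough counts to be tested. Gpihbp1 met the filter only through its control day 0 libraries, and Aqp7 only through its day 7 libraries. The lower calls of Gpihbp1 against control day 0, counted above, therefore rest on the group that let it be tested and are no support. The same holds for the calls of Aqp7 as higher at day 7 than at day 0, also counted above. Passing means an adjusted p under 0.05 in edgeR's quasi-likelihood test, with Benjamini-Hochberg adjustment over all genes tested.

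The difference between labels itself differed between the days for 6 of the 9 genes, each shifted upward from day 0 to day 7: Lpl, Gpihbp1, Cd36, Slc27a1, Fabp4 and Fabp5. For Vldlr, Acsl1 and Aqp7 this test did not pass. Of all genes, 51.9% passed it, 23.9% with an upward and 28.1% with a downward shift. The median shift on the log2 scale was 1.38 over the 9 genes and −0.06 over all genes tested. The shift of Gpihbp1 takes in control day 0, the only group through which that gene could be tested, and is no support.

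**Figure D2:**
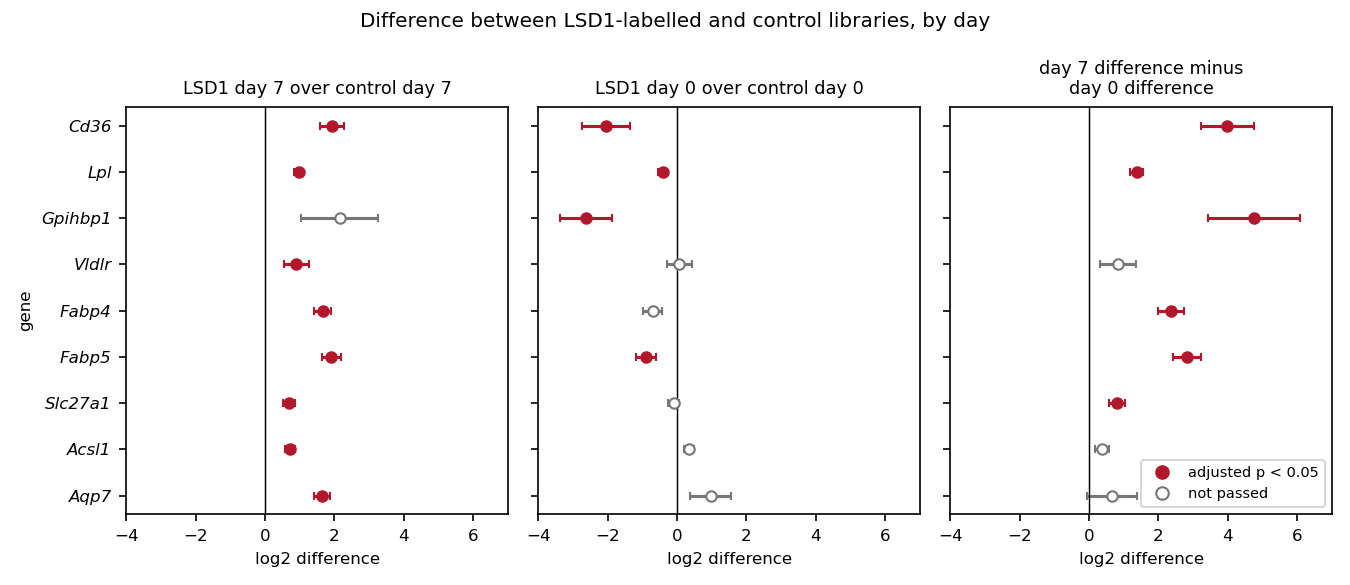
Log2 difference with its SE (bars) for each gene from the edgeR fit of 12 libraries: LSD1-labelled over control at day 7, the same at day 0, and the first minus the second. Filled red points have an adjusted p under 0.05, open grey points do not. At day 7 the points lie between 0.69 (Slc27a1) and 2.15 (Gpihbp1), and at day 0 between −2.62 (Gpihbp1) and 0.97 (Aqp7).

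Lpl, the lipase that frees fatty acids from lipoprotein triglyceride (chr8:68880555-68906932, plus strand, mm10), was the highest of the 9 per kilobase before induction, rose with differentiation under both labels, and at day 7 was 1.96 times as high in LSD1-labelled as in control libraries. Its levels were 10026, 8558 and 8061 CPM at day 7 and 453, 572 and 502 CPM at day 0 in LSD1-labelled libraries. Control libraries had 4792, 4441 and 4352 CPM at day 7 and 679, 594 and 757 CPM at day 0. The labels did not overlap at either day: LSD1-labelled libraries were the higher ones at day 7 and the lower ones at day 0. The log2 difference at day 7 was 0.97 (SE 0.133, edgeR adjusted p = 3.33e-05), and that at day 0 was −0.41 (SE 0.132, edgeR adjusted p = 0.037). The shift between the days was 1.38 (SE 0.188, edgeR adjusted p = 5.55e-05). Day 7 was above day 0 by 4.13 in LSD1-labelled and by 2.74 in control libraries. Without control day 0 replicate 3 the day 0 difference was −0.33 (edgeR adjusted p = 0.158), and it passed in neither of the fits without LSD1-labelled day 0 replicate 3 (adjusted p = 0.0922) or control day 0 replicate 1 (adjusted p = 0.0911).

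Gpihbp1, the capillary anchor of the lipase (chr15:75596630-75598213, plus strand), was close to absent in every library. Its raw counts were 2, 3 and 11 at day 7 and 5, 10 and 1 at day 0 in LSD1-labelled libraries, against 0, 4 and 0 at day 7 and 42, 27 and 26 at day 0 in control libraries. The highest counts were thus those of control day 0, at 1.26 ± 0.341 CPM, and no other group overlapped them. Gpihbp1 met the filter on low counts only through these libraries. Its calls against control day 0, and its shift between the days, are therefore given as description. Summed over 3 libraries and scaled for depth, LSD1-labelled day 0 had 0.159 times the level of control day 0 (95% interval 0.0876 to 0.272, counting error only), and the fitted log2 difference was −2.62 (SE 0.742, edgeR adjusted p = 0.021). That call was lost without LSD1-labelled day 0 replicate 3 (−2.12, adjusted p = 0.0746) and without control day 0 replicate 1 (−2.38, adjusted p = 0.0773). Control day 7 had 0.0467 times the level of control day 0 (0.0125 to 0.124; edgeR adjusted p = 0.00208). At day 7 the LSD1-labelled sum was 4.79 times the control sum (1.55 to 19.7), but these are 16 against 4 counts, the libraries overlapped, and edgeR's adjusted p was 0.109. Without control day 7 replicate 2, which held all 4 counts, edgeR's adjusted p was 0.0199. The shift between the days was 4.76 (SE 1.33, edgeR adjusted p = 0.00917), and 3.73 (adjusted p = 0.0709) without LSD1-labelled day 7 replicate 3. The endothelial markers given above were as low.

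Vldlr, the receptor for very low density lipoprotein (chr19:27217020-27254231, plus strand), was higher at day 7 than at day 0 under both labels. It stood at 408, 413 and 406 CPM at day 7 and 18.6, 80.0 and 81.6 CPM at day 0 in LSD1-labelled libraries. Control libraries had 219, 210.3 and 229 CPM at day 7 and 56.3, 56.2 and 60.3 CPM at day 0. The day 7 values were tight and did not overlap between labels, whereas at day 0 the LSD1-labelled values spread on both sides of the control values, with replicate 1 the low one. At day 7 the log2 difference was 0.90 (SE 0.362, edgeR adjusted p = 0.0446), and the difference at day 0 was 0.06 (SE 0.363, edgeR adjusted p = 0.923). The day 7 call passed with and without the library that stands apart, but its SE and adjusted p depend on that library, because all 12 libraries share 1 estimate of spread. Without LSD1-labelled day 0 replicate 1, the day 7 difference was 0.90 with SE 0.076 and edgeR adjusted p = 8.4e-10, the day 0 difference was 0.49 (adjusted p = 8.93e-05), and the shift between the days was 0.41 (adjusted p = 0.00371) in place of 0.84 (adjusted p = 0.189). With that library kept, leaving out any 1 of the 6 day 7 libraries gave an adjusted p of 0.0868 to 0.107 for the day 7 difference, and leaving out control day 0 replicate 3 gave 0.0568. It also missed the threshold with upper-quartile scaling (0.76, adjusted p = 0.0825) and without the filter on low counts (0.86, adjusted p = 0.125).

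Cd36, the scavenger receptor that takes long-chain fatty acids into fat cells (counted transcript chr5:17781690-17849792, minus strand), was nearly absent at day 0 and abundant at day 7 under both labels. Its level was 3869, 3667 and 3095 CPM at day 7 and 0.45, 0.179 and 0.183 CPM at day 0 in LSD1-labelled libraries. In control libraries it was 966, 897 and 926 CPM at day 7 and 0.275, 0.564 and 2.5 CPM at day 0. At day 7 the labels were far apart, and at day 0 they overlapped. The log2 difference at day 7 was 1.93 (SE 0.346, edgeR adjusted p = 0.000323), which is 3.81 times the mean control CPM. Day 7 exceeded day 0 by 13.68 (SE 0.609) in LSD1-labelled and by 9.70 (SE 0.514) in control libraries, with 5 to 11 and 7 to 63 raw counts per library at day 0. The day 0 difference was −2.05 (SE 0.699, edgeR adjusted p = 0.0472) and rests on control day 0 replicate 3, which had 63 counts, against 7 and 14 in the other 2 control libraries. Without it the day 0 difference was −0.65 (edgeR adjusted p = 0.353), and the shift between the days was 2.58 (adjusted p = 0.00123) in place of 3.98 (SE 0.764, adjusted p = 0.000823). Without LSD1-labelled day 0 replicate 1 the day 0 difference was −2.59 (adjusted p = 0.0762). It also missed the threshold without LSD1-labelled day 0 replicate 2 or 3 (adjusted p = 0.121 and 0.132). The 5 Cd36 transcripts had nearly equal counts, from 250373 to 264340 over the 12 libraries, so which of them was expressed cannot be read from these files.

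Slc27a1, also called fatty acid transport protein 1 (chr8:71568871-71587307, plus strand), was the gene of the 9 that did not pass the test between the days in control libraries. LSD1-labelled libraries had 90.1, 95.2 and 98.6 CPM at day 7 and 75.4, 45.5 and 45.2 CPM at day 0. Control libraries had 59.3, 56.4 and 60.0 CPM at day 7 and 60.1, 58.0 and 60.4 CPM at day 0. All 3 LSD1-labelled day 7 libraries were above every other library, while the 2 control groups overlapped. The label difference at day 7 was 0.69 (SE 0.166, edgeR adjusted p = 0.00266), and the difference between the days was 0.77 (SE 0.166, edgeR adjusted p = 0.00103) in LSD1-labelled and −0.02 (SE 0.165, edgeR adjusted p = 0.922) in control libraries. At day 0 the label difference was −0.10 (SE 0.165, edgeR adjusted p = 0.687), with the library that stands apart above and the other 2 below the control range. Without that library it was −0.39 (adjusted p = 0.00142), and the shift between the days was 1.09 (adjusted p = 1.55e-07) in place of 0.80 (SE 0.234, adjusted p = 0.012).

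Fabp4, the main fatty acid binding protein of fat cells (chr3:10204342-10208616, minus strand), was the highest of the 9 per kilobase at day 7 under both labels. In CPM, not scaled for length, Lpl had the higher mean in control day 7 libraries (4528 against 4350 CPM). Fabp4 reached 16138, 14014 and 11106 CPM at day 7, against 6.84, 7.34 and 7.67 CPM at day 0, in LSD1-labelled libraries. Control libraries had 4261, 3528 and 5261 CPM at day 7 and 8.09, 9.42 and 18.0 CPM at day 0. The labels did not overlap at either day, with LSD1-labelled libraries higher at day 7 and lower at day 0. The label difference was 1.66 at day 7 (SE 0.253, edgeR adjusted p = 8.64e-05) and −0.70 at day 0 (SE 0.27, edgeR adjusted p = 0.0768). The day 0 value was −0.27 (adjusted p = 0.421) without control day 0 replicate 3, the highest of its group, and it passed with DESeq2 (−0.71, adjusted p = 0.0314) and without control day 0 replicate 1 (−0.91, edgeR adjusted p = 0.0349). The shift between the days was 2.36 (SE 0.369, edgeR adjusted p = 0.000178).

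Fabp5, the binding protein first described in the epidermis (chr3:10012585-10016610, plus strand), lay on the same chromosome and followed the same directions at a lower level. It had 681, 620.5 and 674 CPM at day 7 and 25.1, 10.6 and 10.6 CPM at day 0 in LSD1-labelled libraries. Control libraries had 161, 148 and 217 CPM at day 7 and 26.2, 34.6 and 25.2 CPM at day 0. The labels did not overlap at day 7, and at day 0 the highest LSD1-labelled library, replicate 1, was just under the lowest control library. The label difference was 1.91 at day 7 (SE 0.283, edgeR adjusted p = 6.8e-05) and −0.90 at day 0 (SE 0.287, edgeR adjusted p = 0.0366). Without replicate 1 the day 0 difference was −1.44 (adjusted p = 7.87e-07). In each of the 5 fits that kept replicate 1 and left out another day 0 library it did not pass (adjusted p from 0.0597 to 0.132, edgeR). The shift between the days was 2.81 (SE 0.402, edgeR adjusted p = 8.95e-05).

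Acsl1, the long-chain acyl-CoA synthetase that traps fatty acids by activating them (chr8:46471037-46536051, plus strand), rose strongly with differentiation under both labels. LSD1-labelled libraries had 2990.0, 2966 and 3046 CPM at day 7 and 39.8, 56.7 and 55.8 CPM at day 0. Control libraries had 1956, 1716 and 1807 CPM at day 7 and 36.4, 37.3 and 46.7 CPM at day 0. The labels were apart at day 7 and overlapped at day 0, where the library that stands apart was the lowest LSD1-labelled one. Day 7 exceeded day 0 by 5.88 (SE 0.175) in LSD1-labelled and by 5.51 (SE 0.173) in control libraries, and the shift of 0.38 (SE 0.202) did not pass (edgeR adjusted p = 0.137). The label difference was 0.72 at day 7 (SE 0.142, edgeR adjusted p = 0.000705) and 0.34 at day 0 (SE 0.145, edgeR adjusted p = 0.105). Without LSD1-labelled day 0 replicate 1 the day 0 difference was 0.49 (adjusted p = 0.000779).

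Aqp7, the glycerol channel of fat cells (chr4:41033074-41048136, minus strand), was rare before induction and moderate after it. It met the filter on low counts only through its day 7 libraries, so this rise is given as description. Its levels were 40.8, 33.8 and 37.6 CPM at day 7 and 0.246, 0.215 and 0.183 CPM at day 0 in LSD1-labelled libraries, where the day 0 values come from 5 or 6 counts each. Control libraries had 12.9, 11.9 and 11.4 CPM at day 7 and 0, 0.0806 and 0.238 CPM at day 0, the last 3 from 0, 2 and 6 counts. The labels were apart at day 7 and overlapped at day 0. The label difference at day 7 was 1.63 (SE 0.229, edgeR adjusted p = 4.13e-05). At day 0 it was 0.97 (SE 0.597, edgeR adjusted p = 0.255), and 2.27 (adjusted p = 0.0406) without control day 0 replicate 3, on 2 counts in the control libraries that remain. The shift between the days was 0.66 (SE 0.724, edgeR adjusted p = 0.47), and −0.64 (adjusted p = 0.537) without that library.

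The likeness of the 9 profiles was measured as the root mean square difference of log2 CPM over the 12 libraries after each gene was centred on its own mean. Lpl was nearest to Vldlr and to Fabp5 (0.66 each), Acsl1 to Aqp7 (0.68), and Cd36 to Fabp4 (1.14). Gpihbp1 was farthest from Cd36 (6.72) and nearest to Slc27a1 (1.44). Among 9524 genes with a mean of at least 10 CPM, the nearest to Cd36 were Cidec (0.52) and Plin1 (0.62), both proteins of lipid droplets. Zbtb16 (0.60) and Gpd1 (0.61), a cytosolic glycerol phosphate dehydrogenase, were nearest to Fabp4, and Plaat3 (0.38) and Lpin1 (0.41), both enzymes of lipid metabolism, to Fabp5. The adiponectin receptor Adipor2 (0.20) and the pantothenate kinase Pank3 (0.21) were nearest to Lpl, and Etv3 (0.29) and Trpc1 (0.30) to Vldlr. Slc27a1 had the closest neighbours, Mmd (0.07) and the myristoyltransferase Nmt1 (0.10). Acsl1 was nearest to Abhd15 (0.50) and Rarres2 (0.53), which encodes chemerin, and Aqp7 to Arxes1 (0.58) and the FGF21 co-receptor Klb (0.60). The genes nearest to Gpihbp1 were Hmga1b (0.83) and Hmga1 (0.84), near-identical copies whose reads may be split between them. Small distances are easier to reach for a gene that varies little, such as Slc27a1, and the 12 points fall in 4 groups, so these values describe the profiles without a test.

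Other genes of the same processes were taken from a list of 54, of which 53 were in the files and 35 had enough counts to be tested. At day 7, 20 of the 35 were higher in LSD1-labelled libraries, 7 were lower and 8 did not pass, with a median log2 difference of 0.84, where 30.2% of all genes were higher and 33.4% lower. At day 0, 1 was higher and 4 were lower (all genes, 12.8% and 13.0%). In LSD1-labelled libraries 23 were higher at day 7 than at day 0 and 6 lower (all genes, 32.6% and 37.2%), and in control libraries 14 were higher and 8 lower (all genes, 23.7% and 24.6%). The shift between the days passed upward for 16 and downward for 4 (all genes, 23.9% and 28.1%).

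Among genes that control lipoprotein lipase, 7 of 10 tested were higher at day 7 and 2 were lower; the counts by role here are to be read against the 30.2% of all genes higher and 33.4% lower at day 7. Angptl4, a secreted inhibitor of the lipase, had 969, 998 and 1059 CPM in LSD1-labelled and 206, 203 and 219.9 CPM in control libraries at day 7, without overlap, a log2 difference of 2.27 (SE 0.21, edgeR adjusted p = 1.03e-06). At day 0 it was lower in LSD1-labelled libraries, by −1.25 on the log2 scale (edgeR adjusted p = 0.000852). Lmf1, which lets the lipase fold in the endoplasmic reticulum, was higher by 0.84 at day 7 (SE 0.133), and Furin, a protease that cleaves proteins of this system, was lower, at −0.60 (SE 0.134). Lipoprotein receptors were divided, with 2 of 5 higher and 2 lower, shares close to those of all genes. Scarb1, the receptor of high density lipoprotein, was higher by 1.26 (SE 0.278). Lrp1, a large receptor of remnant particles, was lower, with 205, 255 and 245 CPM in LSD1-labelled and 1092, 899.6 and 1060.4 CPM in control libraries at day 7, a difference of −2.11 (SE 0.157, edgeR adjusted p = 1.43e-07).

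Both other fatty acid transport proteins with enough counts were higher at day 7, Slc27a4 by 1.23 (SE 0.168). Of 6 other acyl-CoA synthetases 4 were higher, among them Acsf2 by 2.22 (SE 0.186) and Acsl3 by 1.27 (SE 0.207), and Acsl5 was lower, at −0.40 (SE 0.103). Of 3 other binding proteins none was higher and Acbd5, an acyl-CoA binding protein of peroxisomes, was lower, at −0.76 (SE 0.17). Fabp1, Fabp2, Fabp3, Fabp6, Fabp7 and Pmp2 had too few counts to be tested. Of 6 genes of caveolae, the membrane pits that are abundant in fat cells, 4 were higher, with Cavin2 by 1.38 (SE 0.155) and Ehd2 by 1.20 (SE 0.143). Of 3 glycerol channels and kinases tested, 1 was higher and 1 lower: Gk, the kinase that returns glycerol to the triglyceride pool, was the higher one, by 0.94 (SE 0.147). Each of these named genes passed edgeR's test at day 7, with adjusted p from 4.25e-07 (Acsf2) to 0.00447 (Acsl5).

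**Figure D3:**
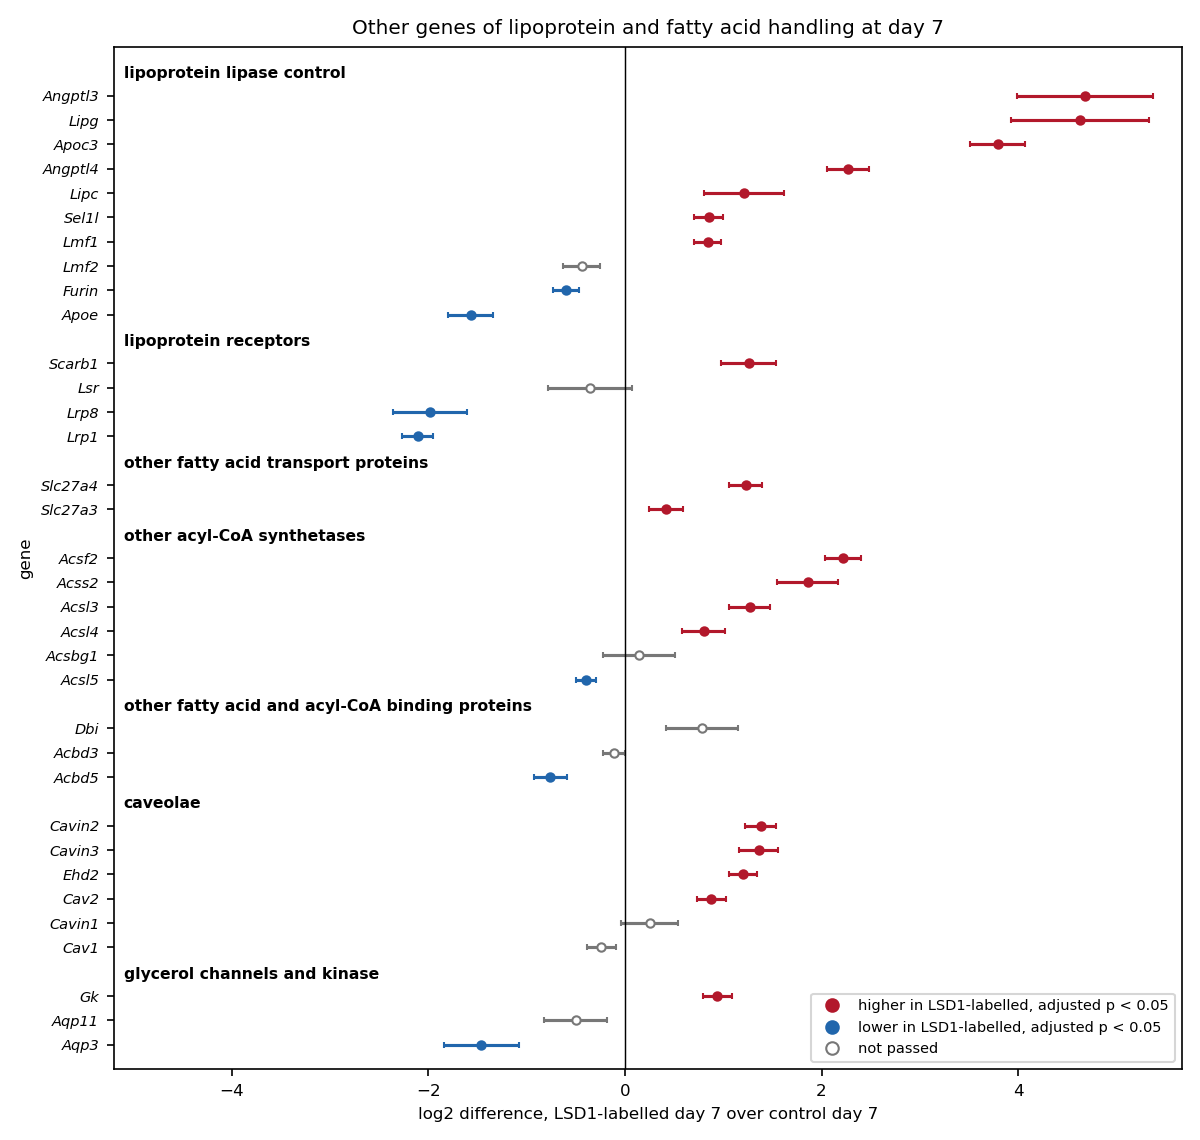
Log2 difference with its SE (bars), LSD1-labelled over control at day 7, for the tested genes of the wider list, by role, with 1 of the 35 not drawn. Red points are higher and blue points lower with an adjusted p under 0.05, and open points did not pass. Among lipase control genes Angptl4 lies at 2.27 and Furin at −0.60, and among lipoprotein receptors Scarb1 lies at 1.26 and Lrp1 at −2.11.

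LSD1 peak lists, 1 ChIP-seq sample each, were read around the RefSeq start sites of the 9 genes. With 1 sample for each list and no read depth in the sources used here, no condition was tested against another, and the scores, which are the authors', are compared only within a list. A peak within 5 kb of a start site was present at 7 of the 9 genes in LSD1-labelled day 7 (83.8% of 13112 tested genes with a start site, 27221 peaks in the list), at 5 in LSD1-labelled day 0 (73.9%, 13997 peaks), at 5 in control day 7 (62%, 8303 peaks) and at 2 in control day 0 (24.4%, 3024 peaks). With no minimum score, in none of the 4 lists was the share of the 9 genes above that of all genes. With a score of at least 100, control day 7 still had 5 of the 9, where 43.4% of all genes had such a peak, and 6 (79.9%), 3 (61%) and 0 (6.69%) of the 9 had one in LSD1-labelled day 7, LSD1-labelled day 0 and control day 0. Gpihbp1 and Aqp7 had none within 5 kb in any list, and Aqp7 none within 50 kb. The nearest LSD1 peak to Gpihbp1 lay 11930 bases away, in LSD1-labelled day 0.

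In the LSD1-labelled day 7 list, the peak at the Fabp4 start site, chr3:10199601-10208889, was 9289 bases wide, spanned the whole gene and had a score of 3100, reached by 319 (1.17%) of the 27221 peaks. Only 39 peaks were at least as wide. The peak over the same start site in control day 7, chr3:10200404-10209028, was 8625 bases wide with a score of 1043.42, and 6 of 8303 peaks there were at least as wide. Neither day 0 list had an LSD1 peak within 5 kb of Fabp4. At Lpl the LSD1-labelled day 7 peak over the start site was 6060 bases wide with the same score of 3100, and 3 further peaks with that score lay in or across the end of the gene. That exact score recurs in the LSD1-labelled day 7 list, whose highest score is 3233.06, and is the highest score in control day 7. Equal scores of 3100 are therefore not read as equal strength. Lpl had a start-site peak also in LSD1-labelled day 0 (5531 bases, score 377.35) and in control day 7 (5036 bases, score 891.79, with 29 of 8303 peaks at least as wide). Fabp5 had a start-site peak of 4049 bases and score 3100 in LSD1-labelled day 7, where 0.9% of peaks were at least as wide. Those in LSD1-labelled day 0 (1923 bases, 39.3%) and control day 7 (1534 bases, 19.6%) were narrower. The lists themselves differ in width, with medians of 707 bases in LSD1-labelled day 7 and 1695 in LSD1-labelled day 0. The medians were 1141 bases in control day 7 and 1216.5 in control day 0.

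Cd36 was marked in 1 list only: 30 separate peaks lay within the gene (107270 bases over its transcripts) in LSD1-labelled day 7, with scores from 52.7 to 482.08 and 20317 bases in all, and 0 in the other 3 LSD1 lists. A peak at chr5:17835452-17836943 (1492 bases, score 295.1) covered the whole Cd36 window printed above, and another, chr5:17849328-17850037, lay over the start of the counted transcript. The printed window of Acsl1 was covered in full by a peak in all 4 LSD1 lists, and that of Vldlr in LSD1-labelled day 7, LSD1-labelled day 0 and control day 7. The peak over Acsl1 in LSD1-labelled day 7 was 78856 bases wide, longer than the gene, with a score of 82.86, and 3 peaks of that list were at least as wide; in the other 3 lists the peak there was 1263 to 1301 bases wide. At Slc27a1 the printed window was covered in full in LSD1-labelled day 7 and over 118 of its 250 bases in LSD1-labelled day 0. Nrf1, a transcription factor profiled in 1 sample at each day, had no peak within 5 kb of any of the 9 start sites at day 7 (14% of all genes) or day 0 (13.4%). For the day 7 Nrf1 sample the genotype label (control) and the title (LSD1 cells) disagree, and both Nrf1 samples are therefore named by day alone.

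**Figure D4:**
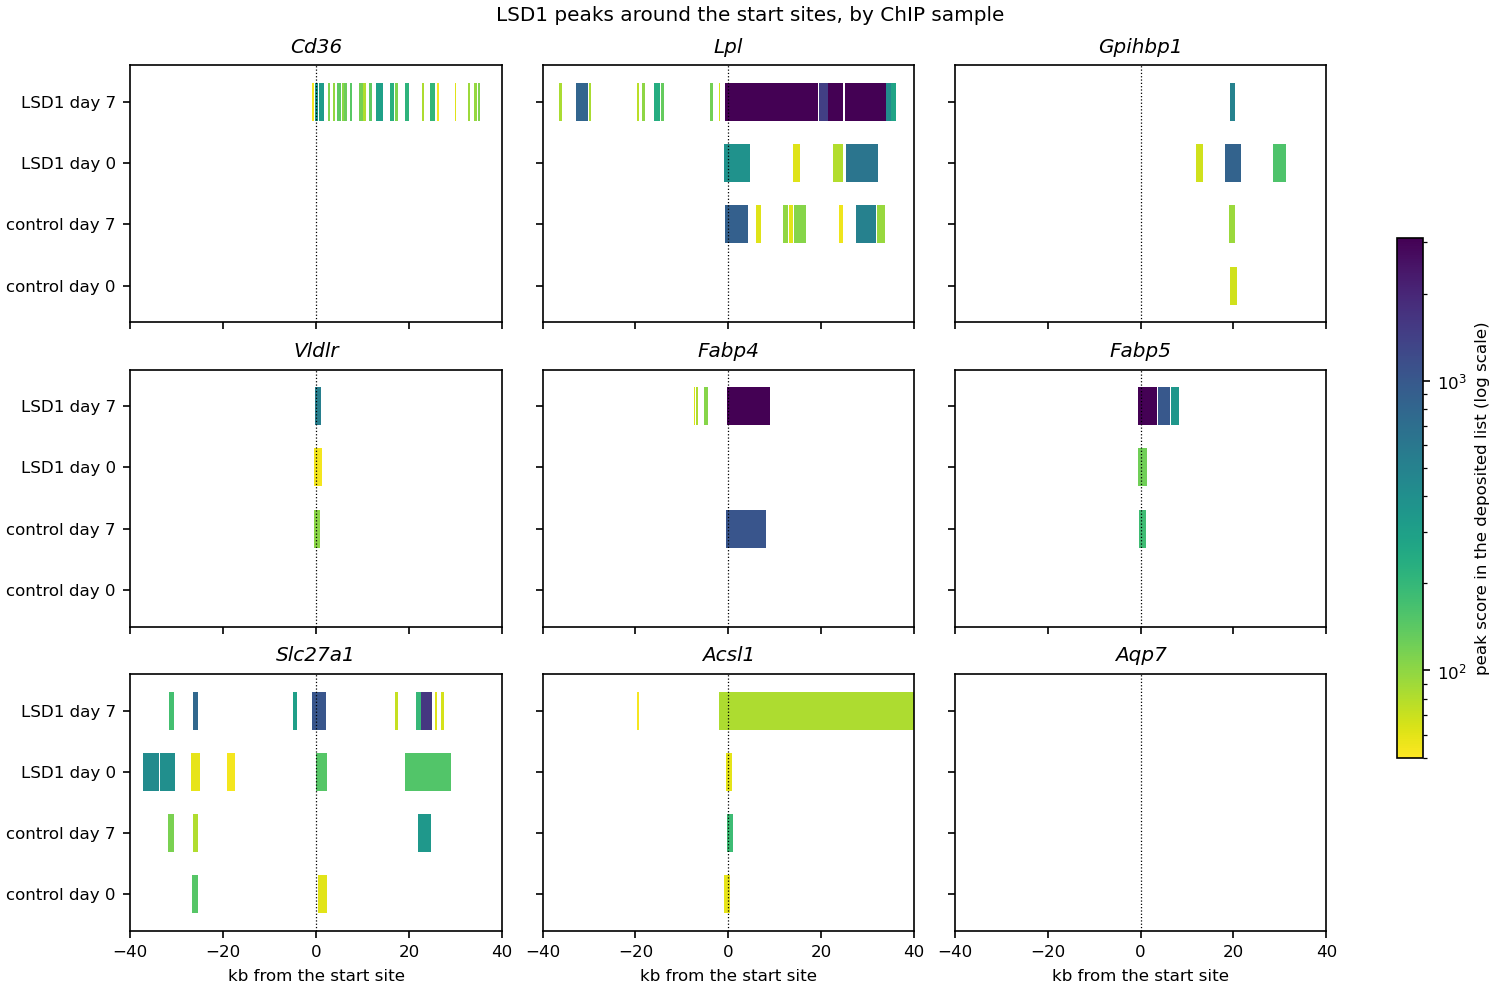
Deposited LSD1 peaks around the start site of the counted transcript of each gene, by ChIP sample (rows), along the strand of the gene in kb and cut at the panel edges; colour is the peak score of the list on a log scale. Cd36 has peaks in the LSD1-labelled day 7 row only, Fabp4 in both day 7 rows, Acsl1 in all 4 rows, and Aqp7 in none.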

How the data were processed

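The authors deposited raw counts, 1 value per RefSeq transcript, for 12 RNA-seq libraries, and LSD1 and Nrf1 peak lists with a score per peak, 1 sample each. The submitters' processing notes give mm10 as build and name TopHat2 2, HOMER, edgeR and DESeq 1.8.3 for RNA-seq, and Bowtie2 and MACS 1.41 for ChIP-seq. How reads that match several places or either strand were counted, and the peak threshold, are not given in the sources used here; the lowest score in the lists is 50. Library totals were 27512273 to 37565527 counts; the 1200 accessions with no symbol in the tables used held 0.896% of counts. For a gene with several transcripts, the one of highest mean count stood for it. edgeR 4.0.16 in R 4.3.3 was used with filterByExpr (minimum count 10), TMM scaling, and two-sided quasi-likelihood tests between the means of the 4 groups (robust option), adjusted by Benjamini-Hochberg over 13356 genes, and was tested on simulated data. The quasi-likelihood test gives no SE, so each SE printed is the size of the log2 difference over the square root of the test's F value. CPM are TMM-scaled, and counting intervals (exact, 95%) cover counting error only, since no molecular identifiers are named in the labels. Alternatives were RLE and upper-quartile scaling, DESeq2 1.42.0, no filter, summed transcripts, a replicate block, 2 groups only and each library left out; leaving LSD1-labelled day 0 replicate 1 or control day 0 replicate 3 out of comparisons they are not part of was added after seeing the data. The 9 genes, the wider list and the marker lists were chosen with earlier results of these data known. Named genes of the wider list are those past the threshold at day 7 with a mean of at least 10 CPM, up to 2 of smallest p for each role and direction; 1 gene is not reported here. Start sites and promoters are from RefSeq, GRCm38.p6, the assembly that mm10 names. Tables and figures used Python 3.11.15 and matplotlib 3.10.9.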

Additional observations from a re-analysis of the deposited data

Results flagged for a closer look

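The difference between labels differed between day 7 and day 0, by edgeR's test of the difference itself, for 6 of the 9 genes and for Kdm1a. Of all genes tested, 51.9% passed this test, 23.9% with an upward and 28.1% with a downward shift. On the log2 scale, the day 7 difference minus the day 0 difference was 3.98 for Cd36, 1.38 for Lpl, 4.76 for Gpihbp1, 2.36 for Fabp4, 2.81 for Fabp5 and 0.80 for Slc27a1. For Cd36 the value was 2.58 without control day 0 replicate 3. For Gpihbp1, which rests on few counts and could be tested only through control day 0, it did not pass without LSD1-labelled day 7 replicate 3. For Kdm1a, the gene named by the label, it was −0.57 (adjusted p = 0.00345).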

How the results depend on the processing

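The alternative fits gave 663 log2 differences of the members, many read from the same fit, so these are not separate checks. Of them, 612 kept their direction and their side of the threshold, 33 lost the call, 8 gained it and 10 turned sign. The comparison at day 7 had 134 of these values, with 9 calls lost (all Vldlr), 1 gained (Gpihbp1) and no change of sign. The comparison of labels at day 0 was the least stable, with 23 lost, 6 gained and 5 turned of 116. There, the count of members passing was 2 with upper-quartile scaling, 2 with no filter, 2 with the replicate block (which also ended the calls of Lpl, adjusted p = 0.0742, and Cd36, 0.0771) and 1 with only the 2 groups compared, and it ran from 0 to 6 without 1 library; the count over all genes was 1862 with only the 2 groups and ran from 2172 to 6565 without 1 library. Values that turned sign, not past the threshold where they did, were those of Vldlr at day 0 (−0.04 with the replicate block, and from −0.22 to 0.49 without 1 library), Slc27a1 at day 0 (from −0.39 to 0.02 without 1 library), Gpihbp1 between days in LSD1-labelled libraries (from −0.56 to 1.22 without 1 library), Slc27a1 between days in control libraries (0 without control day 7 replicate 2, 0.02 with only the 2 groups) and the Aqp7 shift (from −0.64 to 1.23 without 1 library). The cause was not tested. Same-numbered replicates did not deviate together (correlations from −0.25 to 0.11), so the libraries were not treated as paired. With deviations taken from means of 3 libraries, these values cannot show whether the numbers mark a shared culture. The replicate block changed no other count by over 1.5 times. Upper-quartile scaling moved the median of all genes by −0.141 in the day 7 comparison, by −0.156 between days in LSD1-labelled libraries and by −0.18 in the shift, where 36% of the calls were upward in place of 46%. With a peak score of at least 100, 3 members had an LSD1 peak within 5 kb in LSD1-labelled day 0 (61% of all genes) and 0 in control day 0 (6.69%); within 50 kb, 1 member (Slc27a1) had an Nrf1 peak at day 7 (27.7%) and 1 at day 0 (29%). Gpihbp1 in every group, and Cd36 and Aqp7 at day 0, had at most 63 counts per library, which limits the precision of their values.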
